A study of Homo sapiens with 8 samples.

Results

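The H2A histone variants are the genes that code for histone H2A proteins other than the replication-coupled form, and 8 of them were followed here: H2AZ1 and H2AZ2 (both coding for H2A.Z), H2AX, MACROH2A1, MACROH2A2, H2AJ, H2AB1 and H2AB2. They were taken by symbol, with every probe that the platform annotation assigned to them, and form 8 of the 18664 genes named on the array. They had 13 probes, of which 12 reached the level needed for testing, so that all 8 genes were tested by at least 1 probe.

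The data are bead array signals from RKO, an established colon carcinoma cell line, in 4 groups of 2 arrays each. Cells received siRNA against SRCAP or a non-target control siRNA (NC) at 100 nM for 24 hours and then 1 uM 5-Aza-2′-deoxycytidine (5-Aza-CdR), a deoxycytidine analogue that traps DNA methyltransferases, or its vehicle PBS. The groups are therefore SRCAP siRNA with 5-Aza-CdR, NC siRNA with 5-Aza-CdR, SRCAP siRNA with PBS and NC siRNA with PBS, and every group carries an siRNA. For the drug or PBS the sample labels state 72 hours, while the published methods describe a briefer drug exposure and a later RNA harvest. Whether both arrays of a group stem from separate cultures is not stated, and p-values therefore measure only the spread between arrays, which may be technical. Replicate 1 of each group lay on one slide and replicate 2 on another, which are called slide 1 and slide 2.

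Histone H2A is one of the proteins around which DNA is wrapped in the nucleosome, and its variants replace it outside of DNA replication. H2A.Z is placed at promoters and enhancers by the SRCAP and p400 remodelling complexes, H2AX is phosphorylated next to DNA breaks, and the macroH2A proteins carry a large extra domain and are known from repressed chromatin. H2A.J has been described in senescent cells, and H2A.B is a short variant that is made in testis and loosens the nucleosome.

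The DNA methylation that the drug lowers lies on cytosines followed by guanine (CpG sites). For this reason the 250 bases upstream of the start site are shown. They are given for the H2AB genes and H2AJ, whose signals changed, and for H2AZ1, for which no change was called. All 8 genes matched the promoter table. The sequences are from RefSeq (GRCh38.p14), run 5′ to 3′ on the strand of the gene, and have CpG sites in capitals.
H2AB1 (chrX:154884722-154884971, plus strand): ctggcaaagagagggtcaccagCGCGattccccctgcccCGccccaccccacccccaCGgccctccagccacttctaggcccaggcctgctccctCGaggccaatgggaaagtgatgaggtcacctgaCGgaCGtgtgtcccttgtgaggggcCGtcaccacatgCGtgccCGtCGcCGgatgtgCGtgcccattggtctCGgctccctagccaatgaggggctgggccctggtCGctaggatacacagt
H2AJ (chr12:14774155-14774404, plus strand): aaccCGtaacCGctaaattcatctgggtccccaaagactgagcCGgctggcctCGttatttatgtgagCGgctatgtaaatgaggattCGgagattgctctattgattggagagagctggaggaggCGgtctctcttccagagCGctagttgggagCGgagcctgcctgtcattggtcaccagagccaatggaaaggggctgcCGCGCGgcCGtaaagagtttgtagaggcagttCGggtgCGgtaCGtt
H2AZ1 (chr4:99950276-99950525, minus strand): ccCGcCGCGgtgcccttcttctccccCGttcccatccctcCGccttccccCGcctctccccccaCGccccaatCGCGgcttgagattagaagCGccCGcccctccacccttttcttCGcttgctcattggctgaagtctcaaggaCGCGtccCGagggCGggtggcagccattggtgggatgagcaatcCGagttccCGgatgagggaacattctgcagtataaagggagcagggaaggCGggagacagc

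The H2AB1 window held 15 CpG sites, and 42.9% of the 35116 windows of this length in the RefSeq table held at least as many. H2AJ held 16 (reached by 41% of windows) and H2AZ1 held 19 (reached by 34.6%), against a median of 11 over all windows. Each of the 3 windows also held the letters CCAAT 3 times, counted on both strands, a number reached by 2.93% of all windows. H2AZ1 alone of the 3 held TATAAA on either strand, which 10.7% of windows did. H2AB1 and H2AB2 share this sequence base for base with a further copy, H2AB3, all on chromosome X. These counts are descriptions of the windows, and DNA methylation was not measured in these arrays.

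In each array 36.6% to 40.5% of the 48801 probes were detected (detection p under 0.01), and the arrays of a group correlated with r between 0.983 and 0.993. Of 10 colon epithelium markers 4 (EPCAM, KRT8, KRT18 and CDX2) were detected on all 8 arrays and 5 (CDH1, KRT19, VIL1, CDX1 and LGALS4) on none. The targeted gene SRCAP had normalized log2 signals of 6.73 and 6.46 in SRCAP siRNA cells with 5-Aza-CdR, against 6.83 and 7.16 in NC siRNA cells with 5-Aza-CdR, and of 6.58 and 6.58 in SRCAP siRNA cells with PBS, against 7.19 and 7.07 in NC siRNA cells with PBS. Averaged over drug and PBS this is 72.0% of the NC level (log2 change -0.47 ± 0.16, SE), which was lower on both slides (-0.35 and -0.59) and did not pass the test (limma, adjusted p = 0.172). Under drug on slide 1 the change was only -0.099, and raw signals were 219.0 with SRCAP siRNA and 212.6 with NC siRNA. All raw signals of this probe lay between 187.6 and 247, beside array medians of 127.0 to 147.5. How far differences were compressed there was not tested. The published study measured the knockdown by RT-PCR. A further SRCAP probe was detected on no array.

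The variants fell into those whose signal was higher after 5-Aza-CdR and those for which no change was called. The 3 probes of the H2AB genes were not detected in any PBS array and were detected in every 5-Aza-CdR array. H2AJ was higher after 5-Aza-CdR in NC siRNA cells. None of the 8 tested probes of H2AZ1, H2AZ2, H2AX, MACROH2A1 and MACROH2A2 was called for drug or knockdown. Of the 12 member probes, 4 were called higher after 5-Aza-CdR in NC siRNA cells, where 2.66% of all 20328 tested probes were, and 3 in SRCAP siRNA cells, where 1.86% were. For the average of both, 4 were called higher, where 3.39% of all probes were. The H2AB probes passed the detection filter through the drug arrays alone and so had to differ, which leaves H2AJ as the only called probe that was present on all arrays.

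**Figure D1:**
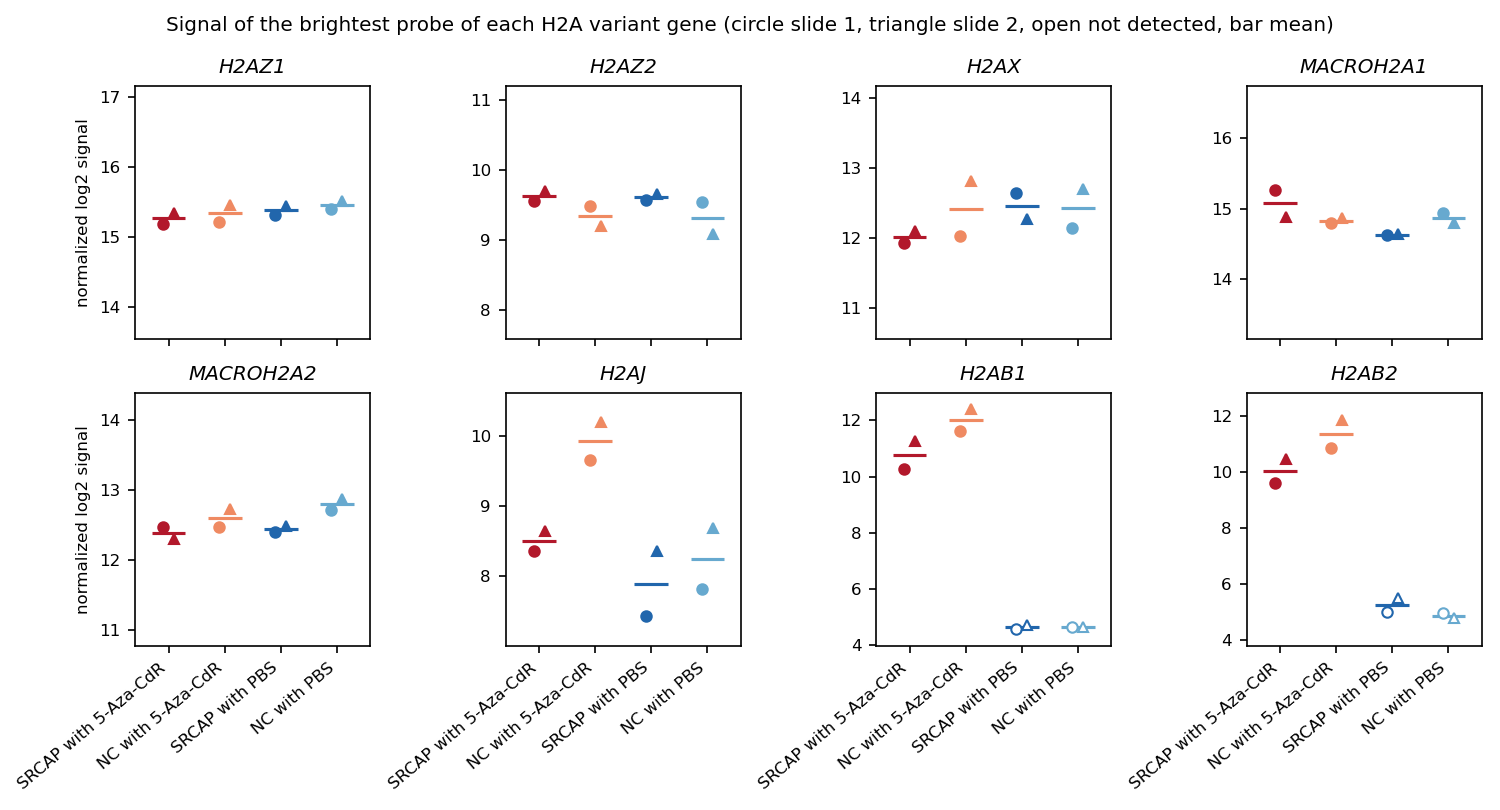
Normalized log2 signal (y axis) of the brightest probe of each of the 8 genes in the 4 groups (x axis), with 1 point per array, circles for slide 1, triangles for slide 2, open symbols for arrays where the probe was not detected and bars for the group means. The y axis covers a wider range for H2AB1 and H2AB2 than for the other genes, whose panels all cover the same range. The H2AB1 arrays with 5-Aza-CdR sit between 10.26 and 12.41 and its PBS arrays between 4.55 and 4.71.

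The H2AB genes code for the testis histone H2A.B. The H2AB1 probe had log2 signals of 10.26 and 11.27 in SRCAP siRNA cells with 5-Aza-CdR and of 11.61 and 12.41 in NC siRNA cells with 5-Aza-CdR, while those of the PBS groups were 4.55 and 4.71 with SRCAP siRNA and 4.65 and 4.64 with NC siRNA. Before normalization the drug arrays read 1406 and 3072 with SRCAP siRNA and 2940 and 4961 with NC siRNA, and all 4 PBS arrays lay between 107 and 129. All drug arrays thus stood far above all PBS arrays. Under drug, the SRCAP siRNA arrays lay below the NC siRNA arrays without overlap in normalized signal, whereas the raw signals overlapped between slides (3072 on slide 2 with SRCAP siRNA, 2940 on slide 1 with NC siRNA) and were lower with SRCAP siRNA within each slide.

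Because no PBS array detected it, the rise of H2AB1 is given as a lower bound, which sets each PBS array at the lowest signal among its detected probes or at its own value, whichever was higher. By this bound H2AB1 was at least 33.5-fold higher after 5-Aza-CdR in SRCAP siRNA cells (group means 10.76 with drug and 4.63 with PBS). In NC siRNA cells it was at least 82.3-fold higher (12.01 and 4.65). No p-value is given for the drug effect on the H2AB probes, as the detection filter fixed that they would differ.

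The first H2AB2 probe (ILMN_1784556) read 9.61 and 10.45 with SRCAP siRNA and drug, 10.85 and 11.85 with NC siRNA and drug, 5.00 and 5.51 with SRCAP siRNA and PBS, and 4.96 and 4.78 with NC siRNA and PBS. The second (ILMN_2226763) read 9.29 and 10.15 with SRCAP siRNA and drug, 10.44 and 11.30 with NC siRNA and drug, 5.56 and 5.31 with SRCAP siRNA and PBS, and 5.19 and 5.57 with NC siRNA and PBS. Both probes showed the order of H2AB1, with no overlap between drug and PBS and, in normalized signal, none between the siRNAs under drug. In raw signal the siRNAs overlapped for both probes, with 1799 on slide 2 with SRCAP siRNA and 1774 on slide 1 with NC siRNA for the first, and 1489 and 1392 for the second. Overlap between groups is given for normalized signals from here on. With 2 arrays per group a lack of overlap is a description, and its share among all probes was not counted. The first was at least 20.2-fold higher after 5-Aza-CdR in SRCAP siRNA cells and at least 52.1-fold higher in NC siRNA cells. The second was at least 16.3-fold higher in SRCAP siRNA cells and at least 37.4-fold higher in NC siRNA cells.

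The 3 H2AB genes are near copies, and how far a probe of one takes up RNA of another was not tested. The probe assigned to H2AB3 was detected on none of the 8 arrays, with raw signals of 95.01 to 119.8. Markers of testis and germ cells moved with the H2AB signals. None of the 6 such genes on the array was detected in any PBS array, DAZL, MAEL and SYCP3 were detected in all 4 drug arrays, and TNP1, PRM1 and PRM2 were detected on none, with a summed signal of the 6 between 6074 and 10467 with drug and between 683.5 and 781.1 with PBS. The summed signals of the fibroblast and blood lists were also higher with drug, though most of their genes were detected on no array. The 5 fibroblast markers summed to between 22395 and 37519 with drug and between 2099 and 3201 with PBS, with VIM the only one detected on all 8 arrays and COL1A1, PDGFRB and DCN on none. The 5 blood markers on the array summed to between 896.0 and 1518 with drug and between 606.8 and 734.7 with PBS. Among them CD14 was detected on 5 arrays, HBA1 on 6, and PTPRC, CD3E and HBB on none. The part of these lists in the result was not tested.

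Under 5-Aza-CdR the H2AB signals were lower with SRCAP siRNA than with NC siRNA on both slides. For H2AB1 the level was 42.2% of that with NC siRNA (log2 change -1.25 ± 0.35, SE), and it fell by 1.35 on slide 1 and 1.14 on slide 2. For H2AB2 it was 40.1% by the first probe (-1.32 ± 0.38) and 45.0% by the second (-1.15 ± 0.35). These differences did not pass the test across all probes (limma, adjusted p = 0.206 for H2AB1, 0.208 for the first H2AB2 probe and 0.238 for the second). With the slide as a block they did, at adjusted p = 0.0187, 0.0162 and 0.0304. The SEs and both sets of p-values draw also on the spread of the PBS arrays, which did not detect the probes. For H2AB1 that spread was narrower (SD 0.0079 with NC siRNA and 0.11 with SRCAP siRNA) than under drug (0.57 and 0.71). Among the drug arrays alone H2AJ was the only member probe called. The blocked values therefore do not settle the drop of the H2AB signals. In PBS the siRNAs could not be compared, since no array of either siRNA detected the probes.

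**Figure D2:**
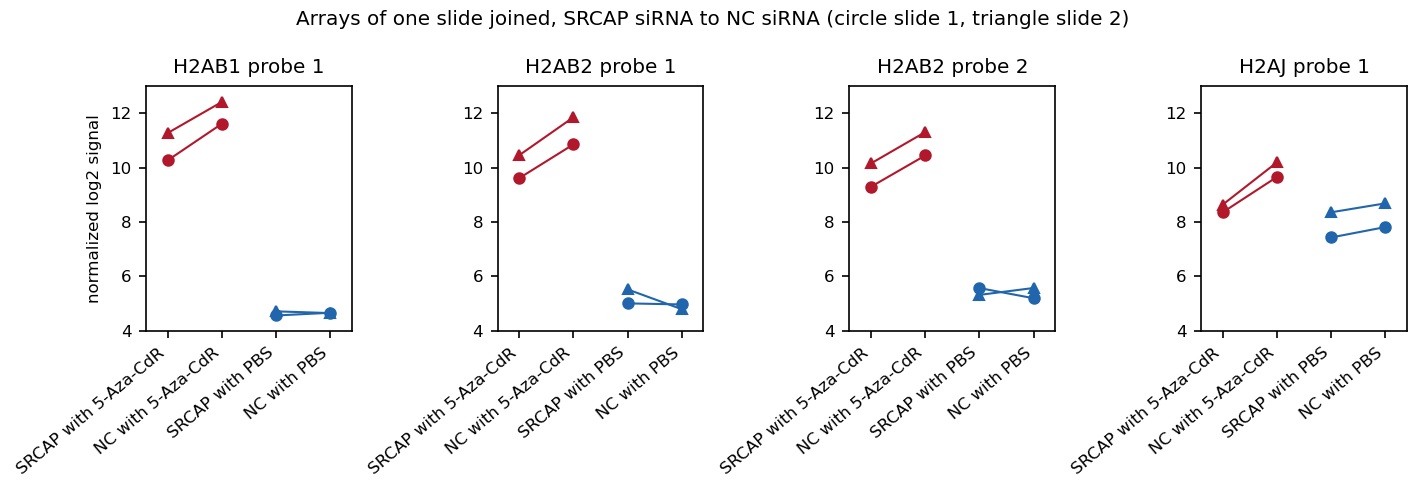
Normalized log2 signal (y axis) of the 3 H2AB probes and H2AJ in the 4 groups (x axis), with a line joining the SRCAP siRNA array to the NC siRNA array of the same slide (circles slide 1, triangles slide 2, red 5-Aza-CdR, blue PBS). In all 4 panels both red lines run upward from SRCAP siRNA to NC siRNA. The PBS points of the H2AB probes were not detected.

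H2AJ codes for H2A.J, which differs from replication-coupled H2A in its C-terminal end. Its signals were 8.35 and 8.63 in SRCAP siRNA cells with 5-Aza-CdR, 9.65 and 10.19 in NC siRNA cells with 5-Aza-CdR, 7.42 and 8.35 in SRCAP siRNA cells with PBS, and 7.81 and 8.68 in NC siRNA cells with PBS. The NC siRNA arrays with drug were above all others, and the SRCAP siRNA arrays with drug lay within the range of the PBS arrays. The signal was higher on slide 2 than on slide 1 in every group, by 0.66 on average. Within slides, the SRCAP siRNA array with drug was above that with PBS, by 0.93 on slide 1 and 0.28 on slide 2.

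After 5-Aza-CdR H2AJ was 3.20-fold higher in NC siRNA cells (log2 change 1.68 ± 0.37, SE, limma adjusted p = 0.0462). In SRCAP siRNA cells the difference was 0.61 ± 0.37, with a 95% interval from -0.23 to 1.44, and did not pass (adjusted p = 0.837). The average of both was 1.14 ± 0.27 (adjusted p = 0.045), and the difference between them, -1.07 ± 0.53, did not pass (adjusted p = 0.999).

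The call in NC siRNA cells was close to the threshold. It was lost without replicate 1 of NC siRNA with PBS (log2 change 1.24, adjusted p = 0.239), replicate 2 of NC siRNA with 5-Aza-CdR (1.42, 0.269), or replicate 1 or 2 of SRCAP siRNA with 5-Aza-CdR (1.68 each, 0.115 and 0.114). It was also lost in the normalized table of the authors (1.20, 0.145). The average over both siRNAs lost its call without the same arrays and without replicate 1 of SRCAP siRNA with PBS, at adjusted p between 0.0797 and 0.236.

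Under 5-Aza-CdR H2AJ with SRCAP siRNA stood at 37.2% of its level with NC siRNA (log2 change -1.43 ± 0.37, SE), with -1.30 on slide 1 and -1.56 on slide 2. This did not pass the test (adjusted p = 0.179), but did with the slide as a block (adjusted p = 0.00506) and among the 4 drug arrays alone (adjusted p = 0.0147). The share of all probes called among those 4 arrays was not counted. In PBS the change was -0.36 ± 0.37, with a 95% interval from -1.19 to 0.48 (adjusted p = 0.856). Averaged over drug and PBS it was -0.89 ± 0.27 (adjusted p = 0.14, with the block 0.00565). Without replicate 1 of NC siRNA with PBS, which leaves 1 array in that group, it was -1.11.

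Over all members, none of the 12 probes was called for the knockdown in any comparison, beside 0.305% of all tested probes under 5-Aza-CdR, 0.00984% under PBS and 0.989% for the average. At an unadjusted p under 0.05 there were 4 member probes under 5-Aza-CdR, 0 under PBS and 2 for the average. Of all 20328 tested probes, 2692, 1375 and 3738 had such a p, in the same order. The 3 H2AB probes, undetected in PBS, could not show a change there. With the slide as a block 4 member probes were called lower under 5-Aza-CdR (the 3 H2AB probes and H2AJ), where 4.1% of all probes were, and 2 for the average (H2AB1, adjusted p = 0.0486, and H2AJ), where 6.06% were. The average of the H2AB probes takes in PBS arrays that did not detect them. The p-values of their change under drug draw on the spread of the same arrays. No member was called for the difference between the drug effects, where 0% of all probes were. There 3 member probes, those of H2AB, had an unadjusted p under 0.05, as had 499 of all 20328 tested probes. That difference also takes in the PBS arrays that did not detect the H2AB probes.

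**Figure D3:**
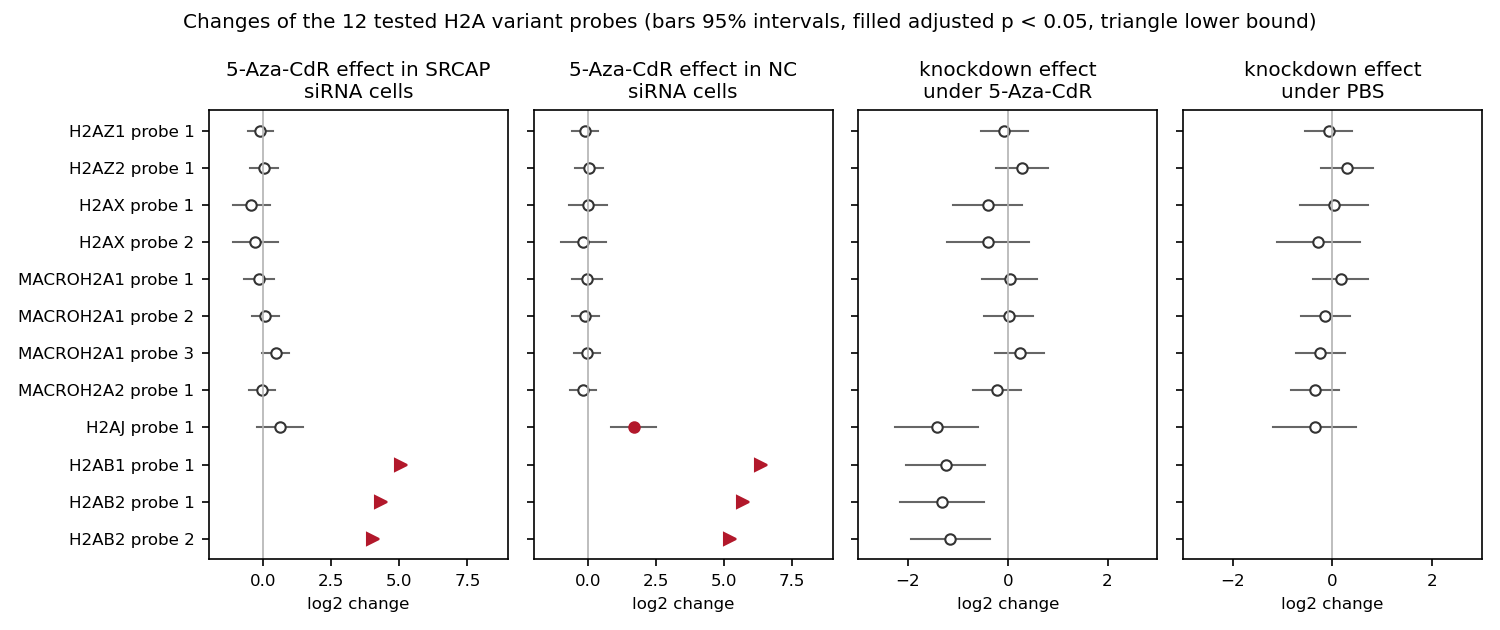
Log2 change (x axis) of the 12 tested probes (rows) for 5-Aza-CdR in SRCAP siRNA and in NC siRNA cells and for the knockdown under 5-Aza-CdR and under PBS, with 95% intervals as lines and filled symbols at an adjusted p under 0.05. Triangles are lower bounds, from 4.03 to 6.36, and the H2AB probes are left out under PBS, where no array detected them. The intervals of the H2AZ1, H2AZ2, H2AX, MACROH2A1 and MACROH2A2 probes all span 0.

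H2A.Z, the substrate of the SRCAP complex, is made from H2AZ1 and H2AZ2. H2AZ1 had log2 signals of 15.19 and 15.35 in SRCAP siRNA cells with 5-Aza-CdR, 15.22 and 15.46 in NC siRNA cells with 5-Aza-CdR, 15.32 and 15.45 in SRCAP siRNA cells with PBS, and 15.40 and 15.52 in NC siRNA cells with PBS. The 4 groups overlapped, their means spanned 0.19, and slide 2 was the higher one in each group. The change after 5-Aza-CdR was -0.11 ± 0.21 in SRCAP siRNA cells (SE, 95% interval -0.59 to 0.36, adjusted p = 0.979) and -0.12 ± 0.21 in NC siRNA cells (-0.59 to 0.36, adjusted p = 0.994). The change with SRCAP siRNA was -0.07 ± 0.21 under 5-Aza-CdR (-0.54 to 0.40, adjusted p = 0.898) and -0.07 ± 0.21 under PBS (-0.55 to 0.40, adjusted p = 0.958). Raw signals of this probe ran from 34251 to 53682, near the top of a scale on which the brightest probe of each array read 64516 to 69254, and whether differences were compressed there was not tested.

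H2AZ2 read 9.55 and 9.70 in SRCAP siRNA cells with 5-Aza-CdR, 9.48 and 9.20 in NC siRNA cells with 5-Aza-CdR, 9.57 and 9.65 in SRCAP siRNA cells with PBS, and 9.54 and 9.09 in NC siRNA cells with PBS. All 4 SRCAP siRNA arrays were above the 4 NC siRNA arrays, by 0.05 on slide 1 and 0.53 on slide 2. The average difference of 0.29 ± 0.17 (95% interval -0.08 to 0.66) did not pass the test (adjusted p = 0.377). The average 5-Aza-CdR effect was 0.02 ± 0.17 (-0.35 to 0.39, adjusted p = 0.991).

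H2AX, the variant phosphorylated at DNA breaks, had 2 probes. The brighter (ILMN_1785756) read 11.93 and 12.11 in SRCAP siRNA cells with 5-Aza-CdR, 12.03 and 12.81 in NC siRNA cells with 5-Aza-CdR, 12.65 and 12.27 in SRCAP siRNA cells with PBS, and 12.15 and 12.71 in NC siRNA cells with PBS. The groups overlapped, and the spread between the arrays of a group was 0.37 (mean SD), the largest among the members called in no comparison apart from the other H2AX probe (ILMN_2200331), at 0.49. The average change with SRCAP siRNA was -0.19 ± 0.22 by the brighter probe (adjusted p = 0.677), with 0.20 on slide 1 and -0.57 on slide 2, and -0.34 ± 0.26 by the other (adjusted p = 0.512), with 0.28 and -0.96. The sign thus differed between the slides for both probes. The average 5-Aza-CdR effect was -0.22 ± 0.22 (95% interval -0.71 to 0.26) and -0.24 ± 0.26 (-0.82 to 0.35), with adjusted p = 0.835 and 0.865.

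MACROH2A1 and MACROH2A2 code for the macroH2A variants. The brightest MACROH2A1 probe (ILMN_2373495) read 15.27 and 14.88 in SRCAP siRNA cells with 5-Aza-CdR, 14.80 and 14.86 in NC siRNA cells with 5-Aza-CdR, and, with PBS, 14.63 and 14.63 with SRCAP siRNA and 14.94 and 14.80 with NC siRNA. In SRCAP siRNA cells both drug arrays were above both PBS arrays, by 0.44 ± 0.22 (95% interval -0.05 to 0.94, adjusted p = 0.726), and in NC siRNA cells the groups overlapped (-0.04 ± 0.22, -0.53 to 0.45, adjusted p = 0.997). Of its other probes, ILMN_1746171 ranged from 11.002 to 11.371 and ILMN_1674034, listed against a different transcript of the gene, from 7.63 to 8.21 over the 8 arrays, with group means within 0.14 and 0.19 of each other. A further MACROH2A1 probe was detected on no array, and no MACROH2A1 probe passed a test.

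MACROH2A2 read 12.48 and 12.30 in SRCAP siRNA cells with 5-Aza-CdR, 12.47 and 12.73 in NC siRNA cells with 5-Aza-CdR, 12.41 and 12.48 in SRCAP siRNA cells with PBS, and 12.72 and 12.87 in NC siRNA cells with PBS. In PBS the SRCAP siRNA arrays lay below the NC siRNA arrays, and under drug the groups overlapped. The average change with SRCAP siRNA was -0.28 ± 0.15 (95% interval -0.62 to 0.05, adjusted p = 0.343), and that with 5-Aza-CdR was -0.12 ± 0.15 (-0.46 to 0.21, adjusted p = 0.888). In bulk RNA such as this, fewer cells with a transcript and less of it per cell cannot be told apart, which holds for all changes given here.

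The genes that act on the variants were set beside them in lists, described by counts. Of 25 genes of H2A.Z exchange (subunits of the SRCAP, TIP60-p400 and INO80 complexes and the H2A.Z chaperone ANP32E) 24 were tested, and none was called for the average 5-Aza-CdR effect, where 3.68% of all probes were, with changes between -0.38 and 0.19 and a median of -0.07 against -0.03 over all 11670 genes. The smallest p belonged to YEATS4, a reader of acetylated histones in the SRCAP complex (-0.38 ± 0.15, adjusted p = 0.329). None was called for the average knockdown effect either, with a median of -0.17 against -0.01 over all genes. With the slide as a block 3 were called lower, INO80B of the INO80 complex (-0.86, adjusted p = 0.00586), DMAP1 of the SRCAP and TIP60 complexes (-0.62, 0.0311) and ZNHIT1 of the SRCAP complex (-0.80, 0.013), and 1 higher, EPC1 of the TIP60 complex (0.54, 0.0447), where 4.25% of all probes were called higher and 6.06% lower. ZNHIT1 and EPC1 were named after their values had been seen.

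Of 18 genes of H2AX damage signalling 14 were tested and none was called for drug or knockdown, with medians of -0.13 and 0.17 for the average effects, against -0.03 and -0.01 over all genes. BRCA1, a repair protein recruited to damaged chromatin, had the smallest p for the drug (-0.42 ± 0.14, adjusted p = 0.242), and RNF8, a ubiquitin ligase of the same response, read 0.45 ± 0.17 for the knockdown by its brighter probe (adjusted p = 0.207) and 0.06 ± 0.22 by its other probe (adjusted p = 0.903). All 10 partners of macroH2A and chaperones of H2A were tested and none was called, with a median of -0.14 for the drug. ATRX, a remodeller that binds macroH2A, was called higher with SRCAP siRNA with the block alone by its brighter probe (0.62, adjusted p = 0.0385, without the block 0.199), and its other probe was not called with or without it (0.44, adjusted p = 0.11 and 0.351).

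Among 19 genes of the replication-coupled H2A clusters and further H2A genes 9 were tested, and 2 were called higher for the average 5-Aza-CdR effect, where 3.39% of all probes were. H2AC6 averaged 9.26 ± 0.01 in SRCAP siRNA cells with 5-Aza-CdR against 7.52 ± 0.12 with PBS, and 9.06 ± 0.34 in NC siRNA cells with 5-Aza-CdR against 7.55 ± 0.15 with PBS (SD, n = 2 each), an average log2 change of 1.63 ± 0.17 (SE, limma adjusted p = 0.000169). H2AC11 averaged 8.39 ± 0.13 in SRCAP siRNA cells with 5-Aza-CdR against 6.07 ± 0.79 with PBS, and 8.11 ± 0.04 in NC siRNA cells with 5-Aza-CdR against 6.34 ± 0.60 with PBS (SD, n = 2 each), an average change of 2.05 ± 0.27 (SE, limma adjusted p = 0.00102), and was detected on 1 of the 2 arrays of SRCAP siRNA with PBS. For both, the average change with SRCAP siRNA was small (0.08 ± 0.17 and 0.01 ± 0.27, adjusted p = 0.821 and 0.993).

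H2AC18 read higher with drug and lower with SRCAP siRNA without passing the test (average changes of 1.16, adjusted p = 0.0713, and -1.15, adjusted p = 0.0988), and both were called with the block (0.000592 and 0.00242). H2AC20 had an average knockdown change of -0.73 (adjusted p = 0.244, with the block 0.0149) and read 0.97 after 5-Aza-CdR in NC siRNA cells (adjusted p = 0.601, with the block 0.029). The clustered H2A genes are close copies of each other, so that the gene behind each signal is uncertain. Of 14 variants of H1, H2B and H3 only 5 were tested (H1-10, H3-3A, H3-3B, H3-5 and CENPA), with average drug changes between -0.29 and 0.08 and none called.

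**Figure D4:**
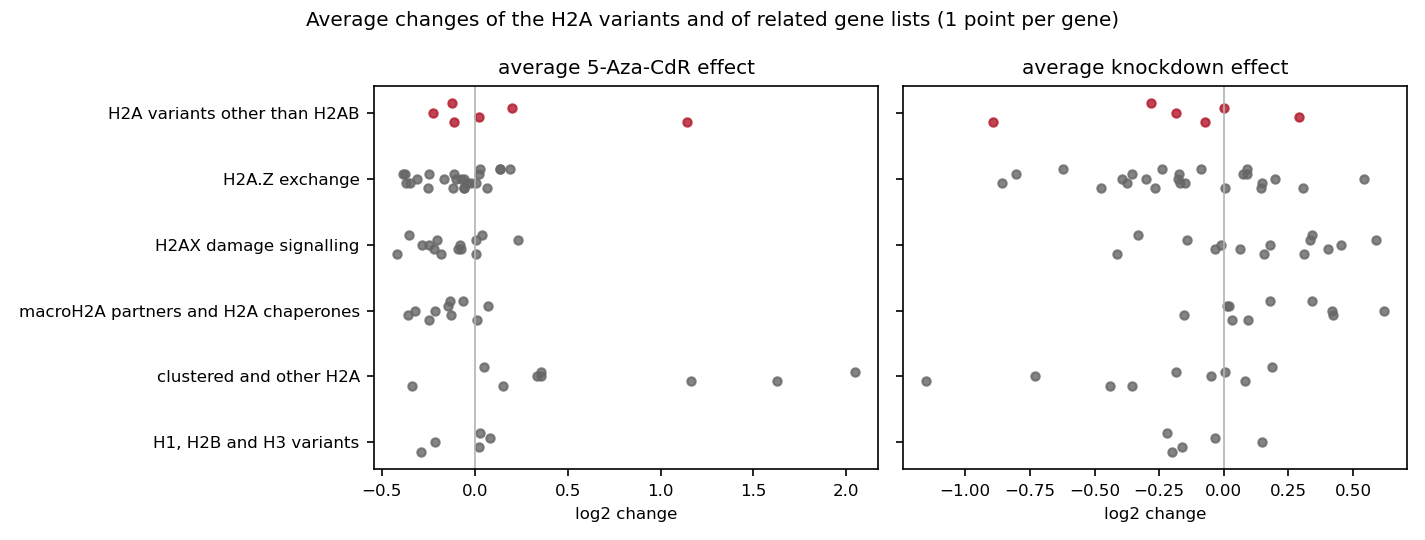
Average log2 change (x axis) after 5-Aza-CdR (left) and with SRCAP siRNA (right), 1 point per gene, for the 6 H2A variant genes detected on all arrays and for the 5 lists of related genes (rows). The points that reach 2.05 and 1.63 on the left are H2AC11 and H2AC6, and H2AJ is the highest of the H2A variants there at 1.14.

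Likeness of pattern over the 8 arrays was measured by Pearson correlation with 11662 other genes and is given as a description, since the arrays share groups and slides. The closest to H2AJ were VAMP8 (r = 0.987), ENKD1 (0.983), GTSE1 (0.98), H2AC18 (0.979) and HLA-DMA (0.968), and 111 genes had r over 0.9. For H2AB1, 344 genes had r over 0.9, the closest being LCMT2, HORMAD1, FMR1NB, SPANXD and ZIK1 (r = 0.999 each), and for H2AB2 337 had, led by ZIK1 (0.998), HORMAD1, CT45A3, GSDME and SPANXD (each 0.997). The probes of all these were undetected in PBS, as those of H2AB1 and H2AB2 were. For H2AZ1 28 genes had r over 0.9, led by AGTR2 (0.952), GCAT, MRPL57, ANKRD36B and PIN4, though the SD of H2AZ1 over the 8 arrays was 0.11. Between the brightest probes of H2AZ1 and H2AZ2 r was -0.52, and between H2AJ and H2AB1 it was 0.76.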

How the data were processed

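Total RNA of 8 RKO samples was measured on Illumina HumanWG-6 v3 bead arrays. The authors deposited probe signals with a detection p-value, in an intensity table not yet normalized (BeadStudio 3.0.1, per the labels), and a normalized table of log2 values made with lumi. In that deposited log2 table low values were compressed (slope against log2 signal 0.475 to 0.61 below a signal of 150 and 0.975 to 1.07 above 2000), so it served as an alternative. Signals were background-corrected and quantile-normalized with neqc (limma 3.58.1, R 4.3.3, offset 16), and of 48801 probes the 20328 with detection p under 0.01 on at least 2 of 8 arrays were tested. Symbols came from the platform annotation, updated by gene ID (27576 probes had 1 symbol, 13 several, 21212 none here).

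Limma was fitted to all 8 arrays with 1 coefficient per group and 7 contrasts, p-values two-sided and adjusted by Benjamini-Hochberg within a contrast, threshold 0.05, residual df 4 and prior df 5.83. The number of arrays limits the precision. SAM, the test named in the published methods, was not run. The replicate number is the slide, per the array barcodes in the labels, so slide pairs the arrays. Deviations of the arrays of a slide correlated between groups by 0.00347 to 0.711 over 6 pairs of groups, and blocked values stand beside a result where they change a call. The brightest tested probe represents a gene.

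The members and lists were chosen with earlier results of these data known. Named were SRCAP, all member probes, up to 4 list genes with the smallest p for the drug and up to 3 for the knockdown, and for H2AZ1 and each called member the 5 genes of highest r. The fit was tested on simulated data. Alternatives were the authors' table, no background correction, median scaling, an offset of 50, no filter or detection on all 8 arrays, the slide block, leaving out each array, and fits of 4 arrays. Promoters were from RefSeq.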

Additional observations from a re-analysis of the deposited data

Results flagged for a closer look

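Some effects ran one way on both slides in one setting and the other way on both slides in the other, and the test of the difference passed for none of them (limma interaction, adjusted p = 0.999 each, unadjusted p between 0.0632 for H2AC20 and 0.339 for H3-3A). The brightest MACROH2A1 probe read 0.24 with SRCAP siRNA under 5-Aza-CdR and -0.24 under PBS. H2AC11 read 0.28 with SRCAP siRNA under 5-Aza-CdR and -0.27 under PBS, and H2AC8 read -0.26 under 5-Aza-CdR and 0.16 under PBS. After 5-Aza-CdR INO80B read -0.21 in SRCAP siRNA cells and 0.22 in NC siRNA cells, and H2AC20 read -0.30 in SRCAP siRNA cells and 0.97 in NC siRNA cells. After 5-Aza-CdR H1-10 read -0.65 in SRCAP siRNA cells and 0.061 in NC siRNA cells, and H3-3A read -0.14 in SRCAP siRNA cells and 0.19 in NC siRNA cells. All are log2 changes between pairs of arrays.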

How the results depend on the processing

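The calls of the H2AB probes after 5-Aza-CdR held in both siRNAs under every alternative that tested them. This adds no support, since these probes were detected in the drug arrays alone. With detection required on all 8 arrays they were not tested and H2AJ was not called, so that 0 member probes were called in SRCAP siRNA cells, in NC siRNA cells and for the average, and 1 list gene was called for the average drug effect. With the replicate block the member calls for the knockdown were 4 under 5-Aza-CdR and 2 for the average, and the block changed no other call of a member probe. It called 7 list genes for the average knockdown effect, where it called 10.3% of all probes, so that nothing is read from this count about the lists. Among the 4 drug arrays alone 1 member probe, H2AJ, was called. The share of all probes called in that fit was not counted, so nothing is read from this count. Leaving out 1 array in turn gave 0 to 1 member probes for the average knockdown effect, with H2AJ called without replicate 1 of NC siRNA with PBS, and 0 to 3 list genes, with INO80B, ZNHIT1 and H2AC18 called without that array and INO80B without replicate 1 of NC siRNA with 5-Aza-CdR. Without either of these arrays the fit called a larger share of all probes for the average knockdown effect than with all arrays. Each such fit also leaves 1 array in a group, so nothing is read from these calls. The change of H2AJ with SRCAP siRNA in PBS ranged from -0.82 to 0.11 when 1 array was left out. It turned positive without replicate 2 of NC siRNA with PBS (0.08) or replicate 1 of SRCAP siRNA with PBS (0.11). The cause was not tested for any of these.

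H2AJ after 5-Aza-CdR in NC siRNA cells also lost its call without background correction (1.38, adjusted p = 0.0938), with an offset of 50 (1.57, 0.0514), with no filter (0.201), with detection on all 8 arrays (0.202) and among 4 arrays (0.123). Its average drug effect lost its call without background correction, with the offset of 50 and with the other filters (0.051 to 0.167), and in the authors' table (0.131).

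Median scaling moved the median of all probes for the knockdown under 5-Aza-CdR to 0.23, against 0.03 with quantile normalization. Under this scaling H2AB1 read -0.96, the first H2AB2 probe -1.02, the second -0.86 and H2AJ -1.13, smaller drops than with quantile normalization. Relative to the median of all probes, H2AB1 read -1.20, the H2AB2 probes -1.25 and -1.09, and H2AJ -1.36. MACROH2A2 read 0.03 under this scaling, or -0.20 relative to the median. None of the 8 probes of H2AZ1, H2AZ2, H2AX, MACROH2A1 and MACROH2A2 was called in any of 16 settings, with the lowest adjusted p of H2AZ1 at 0.704 and the lowest of all at 0.142 (H2AX). Where 95% intervals are printed with these genes, they reflect the spread between arrays, which may be technical. They do not bound differences between cultures or any compression of bright signals.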
